A study of Mus musculus with 4 samples.

Results

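Mesothelium-rich spots were the spots of a lung section with the highest share of transcripts from Msln, Upk3b, Lrrn4 and Wt1. In spots with at least 2000 unique molecular identifiers (UMIs), the UMIs of the 4 genes were summed and divided by the spot's total, and the highest 5% of spots in each section were taken. In what follows CPM is the UMI count of a gene or list scaled to a total of 1000000 UMIs. This gave 231 spots of the 4933 in the series, and the 4401 other spots with at least 2000 UMIs were their comparison. A Visium spot captures RNA from a small region that can hold several cells of different types, so the spots are rich in mesothelial transcripts and are not mesothelial cells. Spot positions were not used here, so their place along the pleura was not checked.

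The sections came from the upper pulmonary branches of C57BL/6J mice, 2 vaped (V) and 2 non-vaped (NV), with 1 male and 1 female mouse in each group. V mice breathed the aerosol of a flavored vape juice (Peach Ice 70VG/30PG) from JUUL pens in whole-body chambers for 4 hours a day, 5 days a week, starting at about 8 weeks of age and for up to 9 weeks. The study's methods for protein blots call the control mice air-exposed. Where they count spots, the methods label the vaped group with a percentage and do not say what it measures. The mesothelium-rich spots numbered 39 and 22 in the NV male and female and 74 and 96 in the V male and female, and held 326941, 182879, 518680 and 1587244 UMIs.

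The mesothelium is the single layer of flat epithelial-like cells that covers the lung as the visceral pleura and lines the chest wall. Its cells secrete lubricant glycoproteins and extracellular matrix, carry membrane mucins on their free surface, and rest on a thin layer of fibroblasts, collagen and elastic fibres. Msln encodes mesothelin, a cell-surface glycoprotein. Upk3b encodes a uroplakin of the mesothelial surface, Lrrn4 a leucine-rich repeat membrane protein, and Wt1 a zinc finger transcription factor that marks mesothelium from development onward.

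The sections differed in ways that touch the results below. Mesothelium-rich spots were shallower than the other spots of their section, with a median of 5698, 8052.5, 4963 and 12112.5 UMIs in the NV male, NV female, V male and V female against 10343.5, 11334, 6615 and 12274.5. Cardiac muscle transcripts made up at least 10000 CPM in 17 of the 39 mesothelium-rich spots of the NV male (43.6%, against 13.9% of its other spots), in 5 of the V female and in none of the NV female or V male. The V male section carried almost no cardiac, fat or cartilage transcripts, and fewer collagen transcripts than the other sections in both kinds of spot (746 against 1750 to 2628 CPM in mesothelium-rich spots). Between 277 and 1167 spot barcodes were shared by each pair of sections, as the barcodes of one slide design are, and 0 to 4 of the shared barcodes were mesothelium-rich in both.

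The 4 genes that chose the spots are given as a description. Msln stood at 248, 448, 245 and 473 CPM in the mesothelium-rich spots of the NV male, NV female, V male and V female, against 21.4, 64.8, 30.9 and 112 in the other spots. Upk3b stood at 385, 738, 216 and 352 against 38.4, 101, 21.0 and 66.7. Lrrn4 was lower, at 91.8, 131, 36.6 and 68.7 against 5.11, 13.9, 3.56 and 11.5. Wt1 was the lowest, at 12.2, 71.1, 7.71 and 47.9 against 3.22, 7.57, 1.24 and 7.55. Msln and Upk3b therefore supplied most of the UMIs behind the choice in every section, and Wt1 rested on 4 UMIs each in the 2 male sections.

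The choice rested on more UMIs per spot in the females than in the males. The chosen spots held a smaller share of the section's marker UMIs in the females, counting spots with at least 2000 UMIs. That share was 16.8% and 18.8% in the NV and V females against 28.2% and 29.1% in the NV and V males. The median mesothelium-rich spot held 11.5 UMIs of the 4 genes in each female section, 4 in the NV male and 2 in the V male. Fewer than 3 such UMIs were found in 11 of 39 NV male spots, 0 of 22 NV female spots, 45 of 74 V male spots and 9 of 96 V female spots. At the threshold the spots were continuous: the lowest mesothelium-rich spot and the highest other spot held 376.22 and 368.53 CPM of the 4 genes in the NV male and 823.32 and 822.37 in the NV female. The V sections had 305.94 and 303.31 (male) and 612.56 and 611.81 (female).

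To measure the markers independently of the choice, each was left out in turn and the spots were chosen by the other 3. All 4 left-out markers were higher in the chosen spots (edgeR quasi-likelihood test with section as a block, Benjamini-Hochberg adjustment over all genes tested). Left-out Msln stood at 183, 389, 122 and 325 CPM in the chosen spots of the NV male, NV female, V male and V female, against 23.9, 67.3, 36.9 and 121 in the other spots, a log2 fold change of 2.05 (SE 0.19, adjusted p = 4.32e-08). Left-out Upk3b stood at 277, 611, 93.8 and 239 against 41.8, 103, 26.9 and 72.0, a log2 fold change of 2.18 (SE 0.18, adjusted p = 1.87e-05). Every section showed the difference for both genes. In sums over spots, fewer cells of a type and less RNA per cell cannot be told apart.

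Left-out Lrrn4 had the largest change, 2.66 on the log2 scale (SE 0.24, adjusted p = 4.47e-08), with 75.0, 118, 20.5 and 59.4 CPM against 5.67, 14.5, 4.28 and 11.9. Left-out Wt1 changed by 2.26 (SE 0.31, adjusted p = 7.63e-05). It was higher in 3 of the 4 sections, at 66.0 against 7.72 (NV female), 5.80 against 1.33 (V male) and 40.9 against 7.94 (V female). In the NV male it rested on 1 UMI in the chosen spots, 2.93 against 3.56 CPM. Without the V female section the adjusted p of Wt1 was 0.273, and the other 3 markers kept their calls without any 1 section.

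**Figure D1:**
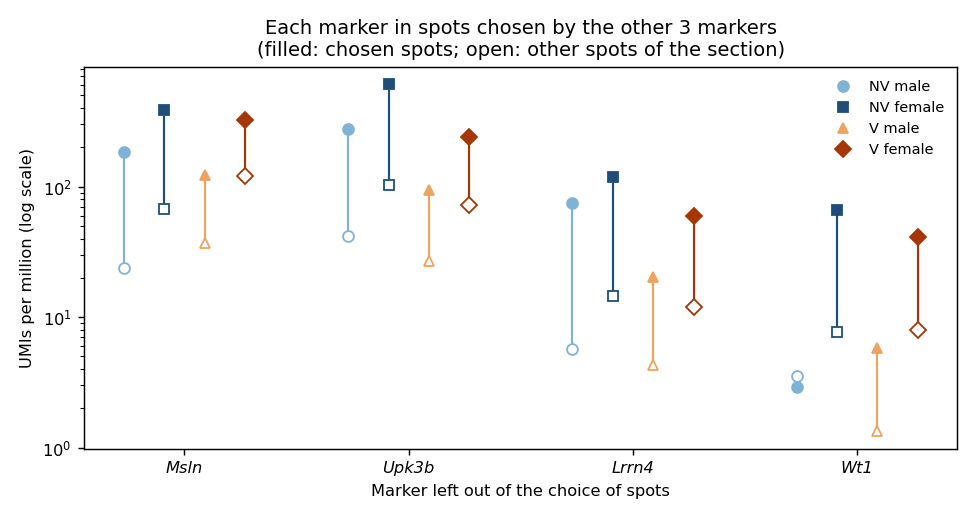
CPM (log axis) of each of the 4 markers in spots chosen by the other 3 markers (filled symbols) and in the other spots of the same section (open symbols), with 1 symbol shape per section and a line joining the pair. All pairs rise from open to filled except Wt1 in the NV male, where the chosen spots hold 1 UMI.

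The promoters of 2 of the marker genes and of Muc16 and Cldn15, the 2 further mesothelial genes of largest change, are shown because these genes were high in the same spots. They are RefSeq sequences of GRCm38.p6, from 250 bases before to 50 bases after the start site, written along the gene's strand: Upk3b chr5:136038246-136038545 (+), Lrrn4 chr2:132880813-132881112 (-), Muc16 chr9:18674554-18674853 (-) and Cldn15 chr5:136967619-136967918 (+). Capitals mark 2 motifs searched on both strands with their overlaps kept, GGAATG, the core bound by TEAD factors, and GNGTGGGNG, of the type bound by WT1 and EGR factors.
Upk3b: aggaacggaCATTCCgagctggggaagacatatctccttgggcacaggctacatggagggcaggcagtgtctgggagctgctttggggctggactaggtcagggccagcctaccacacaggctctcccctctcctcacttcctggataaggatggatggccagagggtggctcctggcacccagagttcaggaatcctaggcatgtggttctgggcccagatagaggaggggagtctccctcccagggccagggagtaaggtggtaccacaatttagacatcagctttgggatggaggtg
Lrrn4: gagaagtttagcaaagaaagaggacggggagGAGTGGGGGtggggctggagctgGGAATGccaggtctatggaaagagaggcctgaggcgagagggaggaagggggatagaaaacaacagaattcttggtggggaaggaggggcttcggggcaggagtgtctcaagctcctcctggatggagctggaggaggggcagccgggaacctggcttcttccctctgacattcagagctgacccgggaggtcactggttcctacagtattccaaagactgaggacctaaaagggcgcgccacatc
Muc16: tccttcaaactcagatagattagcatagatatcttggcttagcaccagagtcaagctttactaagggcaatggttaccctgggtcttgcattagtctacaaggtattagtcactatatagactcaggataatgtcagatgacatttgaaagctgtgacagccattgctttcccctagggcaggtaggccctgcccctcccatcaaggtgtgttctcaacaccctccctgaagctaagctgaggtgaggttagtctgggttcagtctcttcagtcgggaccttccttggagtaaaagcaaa
Cldn15: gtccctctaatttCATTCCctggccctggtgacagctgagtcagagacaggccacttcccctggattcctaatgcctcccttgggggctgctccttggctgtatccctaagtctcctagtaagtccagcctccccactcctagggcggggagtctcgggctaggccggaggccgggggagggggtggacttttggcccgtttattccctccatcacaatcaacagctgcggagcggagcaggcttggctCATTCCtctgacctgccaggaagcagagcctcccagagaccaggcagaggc
The TEAD core occurred once in Upk3b and Lrrn4 and 2 times in Cldn15, and the WT1 and EGR type motif once in Lrrn4. Neither was found in the Muc16 window. Of all 32851 mouse promoters of this length, 14.7% held the TEAD core and 14.3% the WT1 and EGR type motif. Among the 112 promoters matched to 89 of the 128 genes called higher in mesothelium-rich spots (below), 16.96% held each motif. Among the 10 promoters matched to 9 of the 15 listed mesothelial markers, from which those printed here were taken, 4 held the TEAD core and 2 the WT1 and EGR type motif. A match is a string of letters and no evidence of binding.

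Beyond the 4 markers, mesothelium-rich spots were set against the other spots of their section for all genes, leaving the 4 markers out of the table. A gene was called where its adjusted p was under 0.05 and its log2 fold change exceeded 0.25 in either direction. Of 12955 genes tested, 128 were higher (0.988%) and 2 were lower (0.0154%), and 109 of the 128 were higher in all 4 sections, as were 6.19% of all genes, with 10.4% lower in all 4. The median log2 fold change over all genes was -0.03. Here and below, values of single genes are CPM on the scale of the fit, which divides by TMM-adjusted library sizes, and summed lists are plain CPM.

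The other mesothelial markers followed the 4 that made the choice. Of 11 listed genes 10 were expressed highly enough to be tested, and all 10 were called higher and were higher in all 4 sections, with a median log2 fold change of 2.27. Their count, like those of the lists below, is read against the 0.988% of all genes called higher. The lists were chosen with earlier results of these data known, so these counts are a description and not an independent test. The list sum was 658, 1444, 449 and 904 CPM in mesothelium-rich spots of the NV male, NV female, V male and V female against 164, 274, 228 and 233 in the other spots, a ratio of 4.01, 5.26, 1.97 and 3.88. The V male had the lowest ratio. Calb2, which encodes the calcium-binding protein calretinin, had 0 UMIs over all spots of the 4 sections, which allows a level of up to 0.048 CPM (3 UMIs over the series, counting error only).

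Muc16, which encodes the large membrane mucin CA125, stood at 23.0, 140, 21.3 and 69.8 against 4.27, 11.9, 2.54 and 13.4 and changed by 2.73 on the log2 scale (SE 0.23, adjusted p = 2.29e-08). Cldn15, a tight junction claudin, stood at 42.7, 120, 32.0 and 65.2 against 7.42, 20.9, 2.62 and 13.3 (log2 fold change 2.54, SE 0.21, adjusted p = 2.29e-08). Both were separated from the other spots in every section, and their levels were higher in the females than in the males of each group. Aldh1a2, the retinaldehyde dehydrogenase that makes retinoic acid, stood at 98.5, 135, 28.4 and 83.8 against 9.34, 28.6, 7.53 and 21.6 (2.25, SE 0.20, adjusted p = 5.41e-08).

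Pkhd1l1, which encodes a large membrane protein of the fibrocystin family, changed by 2.52, Bnc1, a zinc finger transcription factor of mesothelium, by 2.41, and Ildr2 by 2.30. Rspo1, a secreted enhancer of Wnt signalling, changed by 1.77, and Nkain4 by 1.73. The lowest changes were those of Gpm6a, a membrane glycoprotein also found in neurons and alveolar type 1 cells (1.58), and Upk1b, a uroplakin partner (1.25). These last 2 genes had the weakest enrichment in the V male, with 135 against 106 for Gpm6a and 64.0 against 50.1 for Upk1b.

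The further markers fell in steps with the score and had no break at the 5% threshold. In the highest 2% of spots the list sum was 921, 3019, 578 and 1300 CPM in the NV male, NV female, V male and V female. In spots ranked between 2% and 5% it was 481, 845, 344 and 688, between 5% and 10% it was 268, 563, 273 and 436, and in the lowest 75% of spots it was 152, 234, 225 and 199. The gradient was steepest in the NV female and shallowest in the V male. In the V male, spots with at least 3 UMIs of the 4 markers held 540 CPM of the further markers, those with fewer than 3 held 258, and the section's other spots held 228.

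**Figure D2:**
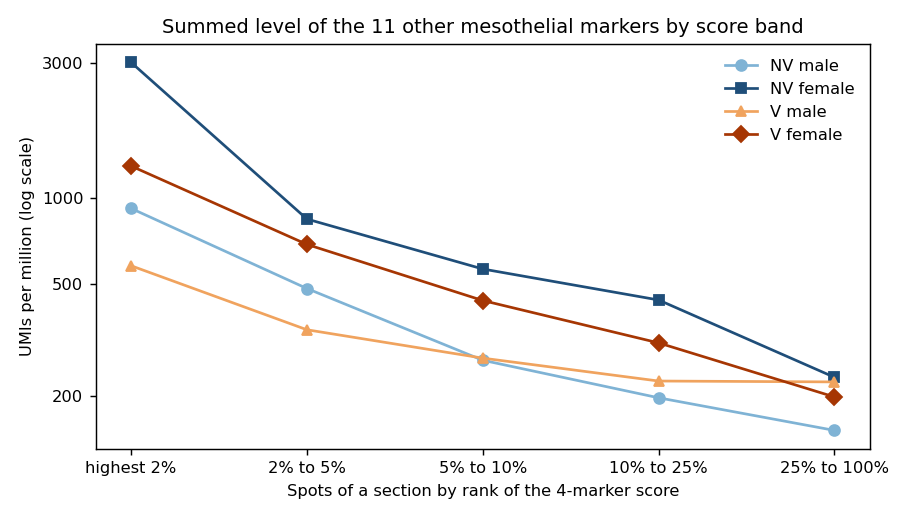
Summed level of the 11 other mesothelial markers (CPM, log axis) in spots of each section grouped by rank of the 4-marker score, from the highest 2% to the lowest 75%. The level falls in every section, from 3019 to 234 in the NV female and from 578 to 225 in the V male.

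In the NV male, the mesothelial signal was as large in spots that also held cardiac muscle. The further markers summed to 660 CPM in its 17 cardiac-rich mesothelium-rich spots and to 654 in its 22 others, against 147 in cardiac-rich spots that were not mesothelium-rich.

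The 20 genes of largest change that were higher in all 4 sections and averaged at least 20 CPM held 6 of the listed mesothelial markers, named above, and 14 other genes. Igfbp5, a secreted insulin-like growth factor binding protein, was the most abundant of them at 1521, 2049, 238 and 1622 against 222, 411, 60.9 and 426 (log2 fold change 2.25, SE 0.15, adjusted p = 1.09e-09). It was higher in every section, with a level in the V male several times below the other 3. Slurp1, a small secreted protein of the Ly6 family, changed by 2.38, and Chst4, a sulfotransferase of carbohydrate chains, by 2.38. Star, which moves cholesterol into mitochondria, changed by 2.25, and Gm12840, an unnamed gene model, by 2.69.

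Among the other genes, Sulf1, an extracellular enzyme that removes sulfate from heparan sulfate, stood at 102, 140, 49.8 and 142 against 23.96, 46.0, 9.82 and 40.4 (log2 fold change 1.91, SE 0.14, adjusted p = 4.90e-09). Sfrp2, a secreted Wnt antagonist, changed by 1.89, Flrt2, a membrane protein of cell adhesion and guidance, by 1.81, and Sema3d, a secreted semaphorin, by 1.73. Cldn10, another claudin, changed by 1.94, Dmkn by 1.85, Stk26, a serine/threonine kinase, by 1.81, and Tmem151a by 1.80. With Rspo1, the list held both a Wnt enhancer and a Wnt antagonist in the same spots.

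The 2 genes called lower were Clec14a, an endothelial membrane lectin, and Lama3, a laminin chain of epithelial basement membrane. Clec14a stood at 135, 109, 274 and 144 against 248, 164, 348 and 213, and fell by 0.57 on the log2 scale (SE 0.14, adjusted p = 0.0348). Lama3 stood at 19.7, 31.2, 44.4 and 39.2 against 51.3, 51.6, 73.5 and 56.9, and fell by 0.70 (SE 0.17, adjusted p = 0.0331). Both adjusted values sat just under the threshold. No gene was called lower by the DESeq2 Wald test, by limma or with spots of at least 1000 UMIs. The same held with the other spots thinned to the UMI total of the mesothelium-rich spots.

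Complement genes were higher as a group. Of the 9 listed complement genes and regulators, all tested, 6 were called higher, against 0.988% of all genes, and 0 lower. This list too was chosen with earlier results of these data known. The median log2 fold change of these genes was 0.84. Their summed level was 3897, 5638, 1974 and 3819 CPM against 1877, 2829, 1205 and 2017, a ratio of 2.08, 1.99, 1.64 and 1.89, so that all 4 sections lay in a narrow range. C3, the central component of the cascade, stood at 1426, 2610, 609 and 1848 against 511, 1202, 304 and 884 (log2 fold change 1.17, SE 0.13, adjusted p = 2.54e-06). C4b, of the classical pathway, changed by 1.43 (SE 0.13, adjusted p = 7.13e-08), and Cfb, of the alternative pathway, by 1.22. C1s1, C1ra and the C1 inhibitor Serping1 also passed, with changes between 0.70 and 0.84. C2, the classical pathway protease that was not on the list, was among the 20 genes above, at 85.4, 317, 49.8 and 171 against 27.8, 58.2, 14.2 and 45.2 (log2 fold change 1.98).

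Genes of adventitial fibroblasts and of matrix were also higher, though less than the mesothelial markers. Their place relative to the mesothelial layer was not checked. Of 10 adventitial fibroblast genes 6 were called higher, against 0.988% of all genes, with a list median of 0.64. Dcn, the proteoglycan decorin, stood at 1491, 1695, 137 and 1996 against 465, 681, 31.7 and 637 (log2 fold change 1.67, SE 0.14, adjusted p = 2.49e-08). Its level in the V male was the lowest of the 4 sections in both kinds of spot. The summed level of the list stood at 2127 against 1991 CPM in the V male, a ratio of 1.07, while the ratio was 1.70 in both NV sections and 1.82 in the V female. Col14a1, a collagen associated with fibrils, changed by 1.39, and Pi16, a surface protein of adventitial fibroblasts, by 1.17, the last with 5.33 against 6.87 in the V male.

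Elastic fibre genes passed in 5 of 10 cases (median 0.48): the fibulins Fbln2 (1.04), Efemp1 (1.02) and Fbln1 (0.98), the microfibril protein Mfap5 (0.71) and elastin, Eln (0.60). Fibrillar and interstitial collagens passed in 3 of 10 (median 0.45): Col14a1, Col3a1 (0.74) and Col1a1 (0.58). Of the 11 basement membrane genes 0 were called by edgeR, with a median of 0.11. No gene of these lists was called lower. Over all genes tested 0.988% were called higher and 0.0154% lower.

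**Figure D3:**
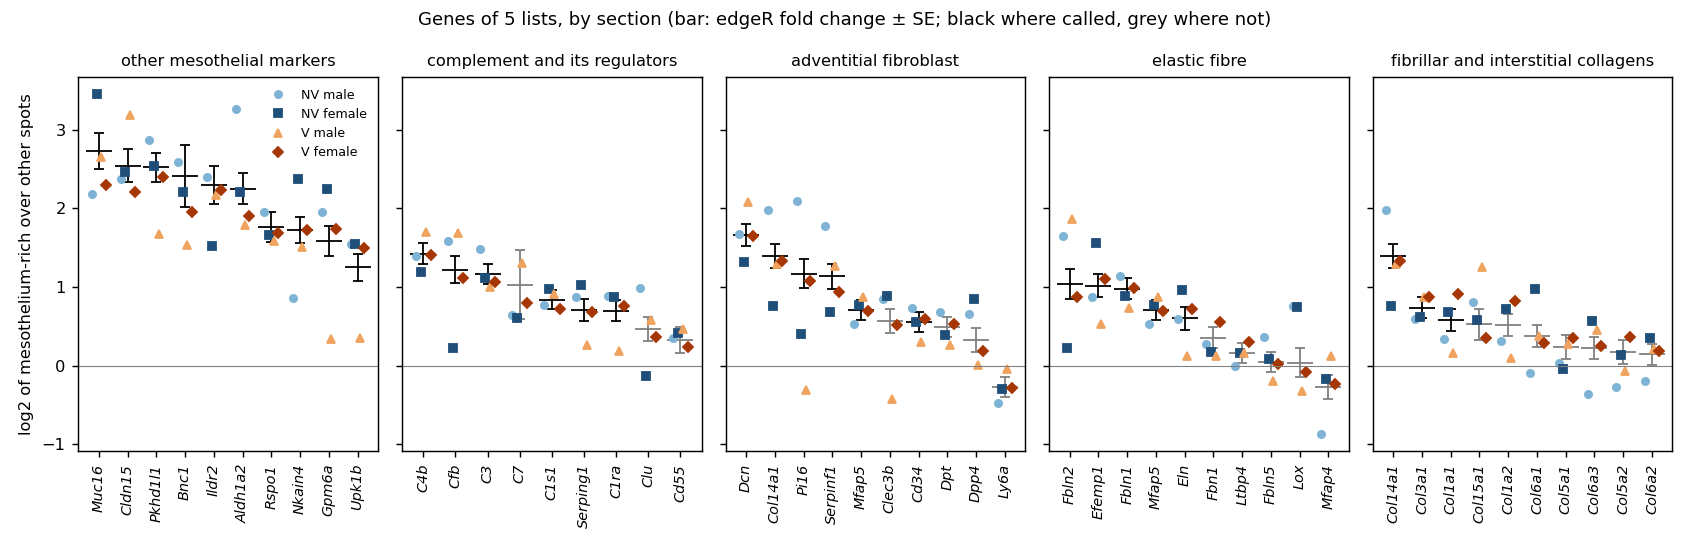
Log2 ratio of mesothelium-rich over other spots for each tested gene of 5 lists, with 1 symbol per section and a horizontal bar with error bars for the edgeR fold change and its SE (black where called, grey where not). The mesothelial markers lie highest, between 1.25 and 2.73 in the fit, and the complement genes lie above 0 in nearly every section.

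Lists of other mesothelial processes moved little. In the list of TGF-beta signalling and mesothelial-to-mesenchymal transition, 1 of 18 genes was called, Tgfb3, a TGF-beta ligand (log2 fold change 0.84, SE 0.19, adjusted p = 0.0253), and the list median was 0.02. In retinoid metabolism 1 of 8 tested genes passed, which was Aldh1a2. None of the 4 simple epithelial keratins, which mesothelial cells share with lung epithelium, was called by edgeR. The most abundant of them, Krt19, stood at 138, 177, 165 and 229 against 99.99, 90.3, 166 and 176. None of 5 tested hyaluronan and lubrication genes or 11 tested coagulation and fibrinolysis genes was called.

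Transcripts of other cell types were measured in the same spots. No gene was called in the lists for alveolar fibroblasts, alveolar type 1 and type 2 cells, club and ciliated cells, capillary and lymphatic endothelium, smooth and cardiac muscle, adipocytes, brown adipocytes, alveolar macrophages, T and NK cells, neutrophils, red blood cells or Schwann cells, and no cartilage gene was tested. Alveolar type 2 transcripts stayed abundant in mesothelium-rich spots, at 17226, 21697, 41083 and 16709 CPM against 31301, 20363, 39840 and 20395, so that the spots held parenchyma as well as mesothelium. The next 2 counts stand against 0.988% of all genes called higher. Of the 6 resident macrophage genes 2 were called higher, C1qa, a complement subunit made by macrophages (0.80), and F13a1 (0.75). Of the 6 B and plasma cell genes 1 was called, Jchain, the joining chain of secreted IgA and IgM (1.27), which was lower in the NV female at 46.8 against 159.

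Cardiac muscle, fat and club cell sums went in different directions in different sections. The cardiac list ratio was 1.84, 0.302, 0.625 and 0.946 in the NV male, NV female, V male and V female, and that of the adipocyte list was 2.46, 0.557, 1.08 and 1.10. When spots with at least 10000 CPM of cardiac genes were left out before the choice, 222 of 12581 genes tested were called higher and 50 lower. Fat-rich spots were left out as well in an alternative added after the data were seen. There 257 of 12154 genes tested were called higher and 75 lower, 118 of the 130 reported genes among them. Beside that share of all genes, 9 of 9 tested mesothelial markers were again called higher. So were 5 of the 6 cardiac genes, then at low levels. The part of cardiac and fat tissue in the other calls was not tested.

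**Figure D4:**
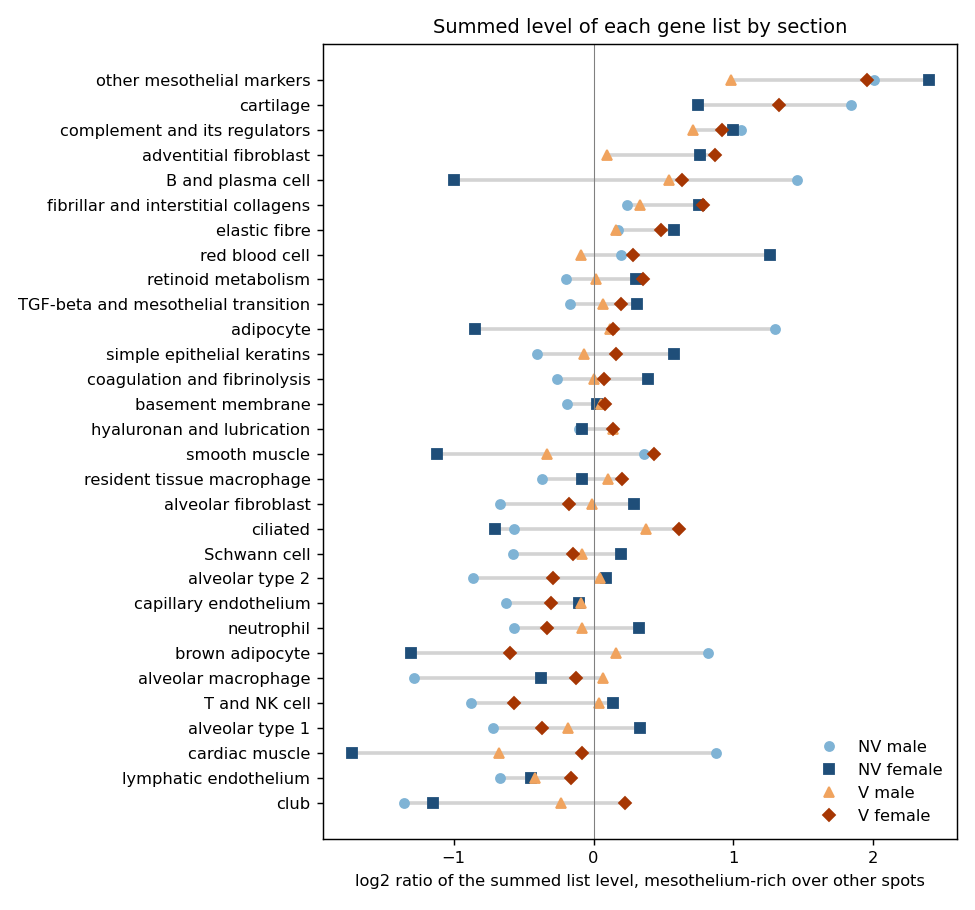
Log2 ratio of the summed level of each gene list, mesothelium-rich over other spots, with 1 symbol per section and a grey line over the range, sorted by the median (the cartilage list has no UMI in the mesothelium-rich spots of the V male and no symbol there). The mesothelial, complement and adventitial fibroblast lists lie above 0 in all 4 sections, while the cardiac muscle, adipocyte and B and plasma cell lists spread to both sides.

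The size of the contrast rested partly on the deepest section. Without the V female 35 of 12792 genes tested were called higher and 2 lower, 35 of the 37 being among the 130. Beside that share of all genes, 8 of the 10 mesothelial markers were called. So were 3 of the 9 complement genes and 3 of the 10 adventitial fibroblast genes. With the other spots thinned to the UMI total of the mesothelium-rich spots, 61 of 6906 genes tested were called, all higher.

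The design also asks whether the mesothelial compartment differed with vaping. Because the same share of spots was taken in every section, the amount of mesothelial transcript was compared over whole sections. Msln stood at 29.96 and 76.7 CPM in the NV male and female against 36.9 and 139 in the V male and female (log2 fold change of V over NV 0.72, SE 0.80, adjusted p = 0.9997). Upk3b stood at 51.1 and 121 against 27.3 and 85.8 (-0.60, SE 0.71, adjusted p = 0.9997). In both groups the female lay above the male for both genes, and the female and male of a group lay farther apart than the group means. Lrrn4 (-0.35, SE 0.71) and Wt1 (-0.13, SE 1.04) were not called either. By edgeR 0 of 14570 genes were called (0%), with 248 at an unadjusted p under 0.05, and 8 were called by DESeq2, none of them a mesothelial marker.

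The balance of Msln and Upk3b was examined after their values were seen and is given as a description. Msln made up 36.9% and 38.9% of the summed Msln and Upk3b UMIs in the NV male and female sections (exact 95% binomial intervals 33.5 to 40.5% and 36.3 to 41.5%) and 57.5% and 61.8% in the V male and female (54.0 to 60.8% and 60.6 to 62.9%). The intervals cover counting error within a section only and say nothing of the spread between mice. The mean was 59.6% ± 3.0 (SD, n = 2) in V and 37.9% ± 1.4 (SD, n = 2) in NV, a difference of 21.7 percentage points. An exact permutation test over whole sections gave a two-sided p of 0.33. No such test of 2 against 2 sections can give a lower value, so it cannot decide the question. The share was 35.8% and 39.2% in the other spots of the NV sections and 59.5% and 62.7% in those of the V sections. In the mesothelium-rich spots, whose choice used both genes, it was 39.1% and 37.8% against 53.1% and 57.3%. Some mesothelium-rich spots of the V female held Msln almost alone, such as 35 UMIs of Msln with 2 of Upk3b, or 17 with 0. Others held more Upk3b, such as 26 UMIs with 7 of Msln. Which cells the Msln transcripts came from was not tested.

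**Figure D5:**
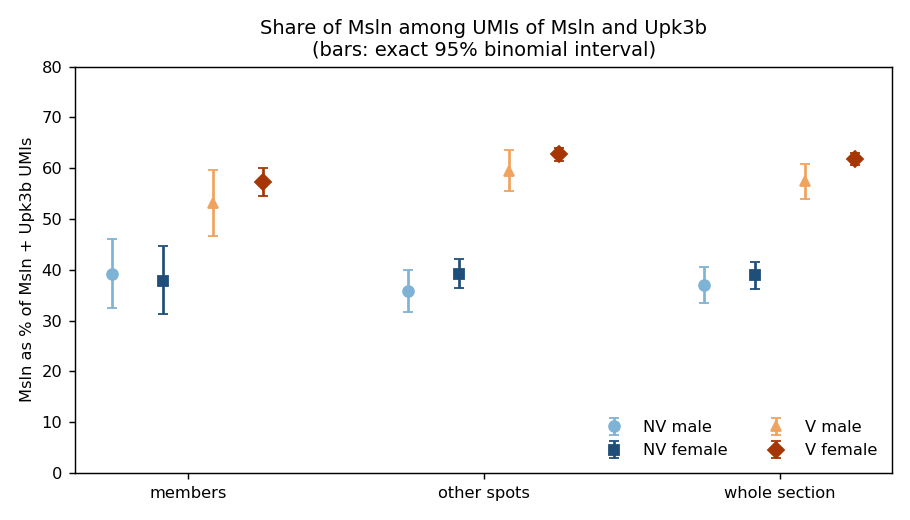
Msln as a percentage of the summed Msln and Upk3b UMIs in mesothelium-rich spots, other spots and whole sections, with 1 symbol per section and exact 95% binomial intervals for counting error. The 2 NV sections lie between 35.8% and 39.2% and the 2 V sections between 53.1% and 62.7%.

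Within the mesothelium-rich spots, no gene passed the test between V and NV. Of 7144 genes 0 were called by edgeR (0%), 148 had an unadjusted p under 0.05, limma called 0 and DESeq2 called 1, Igha. None of the 9 tested mesothelial markers was called, and their median log2 fold change of V over NV was -0.61, against 0.01 over all genes. In 2 of the 9, Aldh1a2 and Upk1b, both V sections lay below both NV sections, and in 0 of 9 above, set against 15.5% and 15.6% of all genes. Aldh1a2 stood at 108 and 146 in NV and at 30.2 and 88.8 in V (-1.02, SE 0.54, adjusted p = 0.9997). The V male was the lowest section for most of these genes. Fewer than 3 UMIs of the 4 genes that chose the spots were found in 45 of its 74 mesothelium-rich spots. Those 45 held 258 CPM of the further markers, against 228 in the section's other spots. The part of this in the contrast was not tested.

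Complement genes were not called between the groups. In 5 of the 8 tested both V sections lay below both NV sections, set against 15.5% of all genes, with a list median of -0.76. C1s1, the largest contrast to its error, stood at 258 and 421 in NV and 138 and 209 in V (-0.96, SE 0.41), and C3 overlapped, at 1556 and 2820 against 648 and 1959 (-0.75, SE 0.61). C3 was also lowest in the V male outside the mesothelium-rich spots, at 304 against 511 and 1202 in NV and 884 in the V female. Measured against the other spots of each section, the median complement difference of V over NV was -0.06, against 0.05 over all genes. Of the 9 complement genes tested this way 0 were called. Among 10 adventitial fibroblast genes both V sections lay below both NV sections in 5 and above in 1, set against 15.5% and 15.6% of all genes. The list median was -0.69. Measured against the other spots of each section, the median adventitial difference of V over NV was -0.14, and 0 of the 10 genes were called.

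The 10 genes with the smallest p in this contrast are given as not called, each with an adjusted p of 0.9997. Nr4a1, an immediate-early nuclear receptor, stood at 272 and 129 in NV and 15.1 and 31.7 in V (log2 fold change -3.03, SE 0.53). Igha, the constant region of IgA, stood at 39.4 and 33.7 in NV and 1136 and 213 in V (4.18, SE 0.90). Marco, a scavenger receptor of alveolar macrophages, had 0 UMIs in the mesothelium-rich spots of either NV section and 24 and 38 in those of the V sections, at least 5.003-fold higher in V when 3 UMIs are taken as the floor over the NV group. The other 7 were Smarcd3 (-1.75), Kcnj8 (-2.31), Ighd (-1.35), Mtmr4 (-1.56), Gm12840 (-2.43), Lars2 (-1.97) and Acaa1b (3.42), the last with 0 and 2 UMIs in NV.

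Several of these differences were present outside the mesothelium-rich spots too. On the scale of the first comparison Nr4a1 stood at 234 and 88.6 in the other spots of NV and 20.9 and 27.3 in those of V, and Marco at 14.8 and 11.6 against 50.2 and 23.8. Igha stood at 75.0 and 43.4 against 231 and 241.

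The contrast of mesothelium-rich with other spots was also compared between V and NV directly, which removes what a whole section shares. Of 13954 genes 1 was called (0.00717%), and it was not a mesothelial gene: Iglc2, an immunoglobulin lambda constant region, whose log2 ratio of mesothelium-rich over other spots was -0.65 and -1.83 in the NV male and female and -0.11 and 1.56 in the V male and female (difference 2.55, SE 0.38, adjusted p = 0.000434). Its ratio was above 0 in the V female alone, and without that section the difference was 1.17 and not called. Iglc2 shares sequence with the other lambda constant genes, and the related Iglc1 had a difference of -1.50 (adjusted p = 0.263).

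The other 9 of the 10 genes with the smallest p were not called, and 3 of them were club cell genes. The naphthalene-metabolizing cytochrome Cyp2f2 had a difference of 1.85 (SE 0.37, adjusted p = 0.0631), and the secretoglobins Scgb1a1 and Scgb3a2 differences of 1.22 and 1.86 (adjusted p = 0.099 each). Cyp2f2 stood at 87.6, 35.9, 21.2 and 1394 in the mesothelium-rich spots of the NV male, NV female, V male and V female, so that the V female set the level. The club cell list ratio was 0.392 and 0.452 in NV and 0.849 and 1.17 in V. Myrf, a membrane-bound transcription factor called higher in mesothelium-rich spots, had a difference of -1.56 (SE 0.33, adjusted p = 0.099), with 71.4 and 149 in NV against 47.8 and 46.9 in V. The other 4 were Abcc3, Rad54l2, Mtmr4 and Jph1, the first 2 with 0 UMIs in the mesothelium-rich spots of NV and Jph1 with 0 in those of V.

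None of the 10 mesothelial markers tested was called in this comparison, and their median difference was -0.43 against 0.05 over all genes. Muc16 had -0.71 (SE 0.43) and Cldn15 0.04 (SE 0.39). Larger differences were also not called, such as that of Cyp2f2 above.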

How the data were processed

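Visium libraries were sequenced and, per the labels, processed with Space Ranger against mm10 and with Seurat 4.0.3. The files used here hold the count tables deposited by the authors, raw UMI counts per gene and spot, with 6957392 to 34308556 UMIs a section. A count limits precision through counting error and through 2 sections a group.

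Members and gene lists were chosen with earlier results of these data known. UMIs were summed per section over mesothelium-rich and over other spots and tested with edgeR 4.0.16 (R 4.3.3; filterByExpr, TMM, quasi-likelihood F test, Benjamini-Hochberg adjustment), with section as a block for contrasts within sections. The study's test over single spots was not used, since spots of a section are not replicates. No doublet caller was run on spots. The fits were checked on simulated counts. The simulated spread was smaller than that between sections in the V against NV contrast, so the error of that contrast was not checked. Alternatives used DESeq2 1.42.0, limma 3.58.1 on log2 of the mean CPM plus 1 (CPM, counts scaled to 1000000), other thresholds and other choices of spots. Genes were named if called, of 1 sign in all sections, at or above 20 CPM and among the 20 highest or 10 lowest changes, if on a list and called with the largest changes or most abundant, or, between V and NV, among the 10 of smallest p. All symbols matched GENCODE vM21 (GRCm38), and promoters came from RefSeq (GRCm38.p6). 1 listed gene is not reported here.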

Additional observations from a re-analysis of the deposited data

Results flagged for a closer look

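A test of the difference between V and NV in how far mesothelium-rich spots departed from the other spots marked Iglc2, with a difference of 2.55 on the log2 scale. It was carried by the V female and its cause was not tested.

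For 3 of the gene lists every NV section moved one way and every V section the other. They were picked out by that split from all the lists measured. With 2 sections a group some lists can split this way without a difference between the groups, and the difference was not tested. The ciliated cell list had log2 ratios of mesothelium-rich over other spots of -0.57 and -0.70 in the NV male and female and 0.38 and 0.61 in the V male and female. It rested on 8, 2, 7 and 229 UMIs in the mesothelium-rich spots, so that 3 of the 4 ratios came from fewer than 10 UMIs. The resident macrophage list had -0.37 and -0.082 in NV against 0.11 and 0.20 in V. The hyaluronan and lubrication list had -0.11 and -0.085 in NV against 0.14 and 0.14 in V.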

How the results depend on the processing

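The count of 130 genes that separated mesothelium-rich from other spots moved by more than 1.5 times to 233 with no filter on low counts, 198 with the highest 2% of spots, 82 with the highest 10%, 272 without cardiac-rich spots, 332 without cardiac-rich and fat-rich spots, 36 by limma, 61 with thinned other spots and 0 with no section block (366 at an unadjusted p under 0.05). Leaving out 1 section in turn gave 37 to 222 genes, the lowest without the V female and the highest without the NV female. The 10 mesothelial markers were all called under 14 of the other 19 settings. With no section block 0 were called, 8 by limma, 8 without the V female, 6 of 6 tested with thinned other spots and 9 of 9 tested without cardiac-rich and fat-rich spots. The left-out markers numbered 3 to 4 called with 1 section left out. The cause of these changes was not tested.

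Between V and NV in mesothelium-rich spots, 68 genes were called with no filter, 1 by DESeq2, and 0 to 483 with 1 section left out, where the group with 1 section is assumed to vary like the other group. For the difference in contrast, 1 gene became 4 with DESeq2 size factors, 0 by the DESeq2 Wald test (77 at an unadjusted p under 0.05), 7 with no filter, 7 with the highest 2% of spots, 0 with the highest 10%, 0 at 1000 UMIs a spot, 5 at 3 marker UMIs, 11 without cardiac-rich spots, 7 without fat-rich spots, 10 without both, 0 by limma, and 1 to 124 with 1 section left out. Iglc1 reversed to 0.73 with the highest 2% of spots. Over whole sections the sign of V over NV turned with 1 section left out for Msln (-0.53 to 1.55), Upk3b (-1.65 to 0.14), Lrrn4 (-1.47 to 0.27) and Wt1 (-2.11 to 0.71), and 0 mesothelial markers were called in any of these fits.

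Replicate numbers (1 male, 2 female) were shared by the groups, and no source used here ties mice of 1 number to a litter or a batch of their own. With them as a block 0 genes were called in mesothelium-rich spots (107 at an unadjusted p under 0.05) and 0 over whole sections, and the male minus female differences of V and NV correlated at -0.22 in mesothelium-rich spots and 0.51 over whole sections across genes. No call changed with the block.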

Other observations

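Other called genes were examined after their values were seen, with no list fixed beforehand, so genes of the same kind that were not called are not shown. Cpa3, Cma1 and Mcpt4, which encode proteases stored in mast cell granules, were all called higher in mesothelium-rich spots, by 1.96, 1.52 and 1.36 on the log2 scale (SE 0.39, 0.30 and 0.29, adjusted p = 0.00566, 0.00621 and 0.0118 by edgeR). Cma1 stood at 13.1, 31.2, 0 and 39.2 CPM in the NV male, NV female, V male and V female against 2.81, 11.1, 1.88 and 12.9 in the other spots. The V male had 0 UMIs of all 3 genes in its mesothelium-rich spots, so that the contrast came from the other 3 sections, with 40, 59 and 51 UMIs of the 3 genes in the V female.

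Gpc3, a heparan sulfate proteoglycan of the cell surface, stood at 332, 582, 398 and 322 against 111, 199, 129 and 141 and changed by 1.47 (SE 0.13, adjusted p = 3.55e-08 by edgeR). Il33, an alarmin cytokine of barrier cells, stood at 118, 208, 105 and 140 against 67.5, 93.9, 77.9 and 81.3 and changed by 0.77 (SE 0.13, adjusted p = 0.000949).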
